A study of Daphnia magna with 24 samples.

Results

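This report concerns 41 array features of the water flea Daphnia magna that read below control in every exposure to upstream water and to mine portal water, but not on average in tailings or Little Grizzly Creek water. They were 41 of 7680 features on the array. The members were chosen by their measured ratios at all 4 sites. All 6 upstream and portal exposures had to lie at or below -0.1, the tailings mean at or above 0 and below 0.4, and the Little Grizzly Creek mean at or above 0. The levels at the 4 sites are therefore given below as a description of the chosen features, and they support no claim about the waters.

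Adult females aged 14 to 16 days were held for 24 h in field water from Walker Mine, collected at sites labelled upstream, portal, tailings and Little Grizzly Creek. Each of the 12 exposures, 3 per site, pooled 10 to 15 whole animals of a genetically homogeneous laboratory stock. Its RNA was set against RNA of animals kept unexposed in COMBO, a defined laboratory medium, on 2 arrays with the dyes Cy3 and Cy5 exchanged. The design text says that the sites differed in copper but gives no amounts, and whether control RNA was shared between exposures is not stated.

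Daphnia are small filter-feeding crustaceans that take up dissolved metals across the gill surfaces and with food, which is why they are a standard animal of freshwater toxicology. Copper is an essential cofactor of respiratory and antioxidant enzymes, but in excess it disturbs sodium uptake and causes oxidative damage. Drainage from copper mines also changes acidity, hardness and other metals, so field water is a mixture and not a copper dose. A ratio below 0 can come from less RNA of a gene per cell, from fewer cells that express it, or from more of it in the control animals, and these cannot be told apart in RNA of whole animals.

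The feature identifiers carry no gene names. None of them, 0 of 7680, matched the 28335 genes of the RefSeq table used here, so no roles are given and few features are named. Values are log ratios as deposited, read as log2 although the base is not stated, with exposed animals likely in the numerator. Were control in the numerator, each low value below would be a high one. Array medians lay between -0.027 and 0.018, the array SD between 0.297 and 1.05, and the values per array between 5106 and 7548. Among 132 pairs of arrays of matching dye orientation, 5 correlated below -0.3, the lowest at -0.376. All 5 were pairs of arrays with exposed animals in Cy5, and each set an exposure numbered 2 against an exposure numbered 3. No pair in the other dye orientation fell below -0.3, but some of the same exposures were negative there too. Upstream exposure 3 correlated at -0.275 with tailings exposure 2 and at -0.236 with Little Grizzly Creek exposure 2. Portal exposure 3 with Little Grizzly Creek exposure 2 was at -0.228. Because of the 5 pairs, the direction of the ratios is not treated as settled. Upstream exposure 2 was part of the pairs with upstream exposure 3 (-0.353) and portal exposure 3 (-0.331). It was not part of the lowest pair, upstream exposure 3 with tailings exposure 2. Whether its sign is turned was not tested. As a check, the second upstream exposure alone was turned. Then 17 features met the selection, and none of the 41 could.

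The selection narrowed in steps. At least 2 exposure values at every site were present for 6504 features, and 4044 of these had all 6 upstream and portal values. All 6 values were at or below -0.1 in 201 features (4.97% of 4044) and at or above 0.1 in 238 (5.89%). Among the 201, the tailings and Little Grizzly Creek means were both below 0 in 105 and both at or above 0 in 80. The upper limit on the tailings mean then removed 39 of the 80 and left the 41. The rest had means on opposite sides of 0, with tailings below 0 in 12 and Little Grizzly Creek below 0 in 4. With every sign turned, the same selection found 34 features.

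At its edges the selection separated features with nearly equal values. For the highest of the 6 upstream and portal exposures, the nearest members stood at -0.1001 and -0.101 and the nearest features outside at -0.0998 and -0.0987. The nearest tailings means were 0.385 inside and 0.403 outside the upper limit. At the lower limits the tailings mean was 0.011 inside and -0.016 outside, and the Little Grizzly Creek mean 0.00079 inside and -0.0058 outside. These gaps are far below the dye-swap error described next.

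The 2 arrays of an exposure did not always give a member the same sign. The dye-swap error, taken as the absolute difference between both arrays divided by 2, had a median over the 12 exposures of 0.141 log2 units for the middle member, against 0.091 for all 6504 features. It was 0.131 for the 160 other features low in all 6 upstream and portal exposures, so the higher error was not particular to the members. Of the 492 single-array values behind the upstream and portal means, 421 (85.6%) were below 0. Only 10 of the 41 members were below 0 on all 12 upstream and portal arrays, 9 on 11 arrays and 11 on 10 arrays, while the other 11 were below 0 on 7 to 9 arrays. Among the 160 other features that were low in all 6 exposures, 78 (48.8%) were below 0 on all 12 arrays.

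The direction of the dye offset was shared within 2 of the 3 exposure numbers. In the exposures numbered 3, the members' median on the array with exposed animals in Cy5 was -0.60 upstream, -0.52 at the portal, -0.12 at the tailings and -0.12 at Little Grizzly Creek. The array with exposed animals in Cy3 gave medians of -0.14, 0.019, 0.33 and 0.28 at these sites. The Cy5 reading was thus the lower at all 4 sites in number 3. In number 2 it was the higher at all 4 sites, as in upstream water with medians of -0.10 in Cy5 and -0.35 in Cy3, and in number 1 the sites were mixed. Medians over all tested features stayed between -0.030 and 0.040 on every array.

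**Figure D1:**
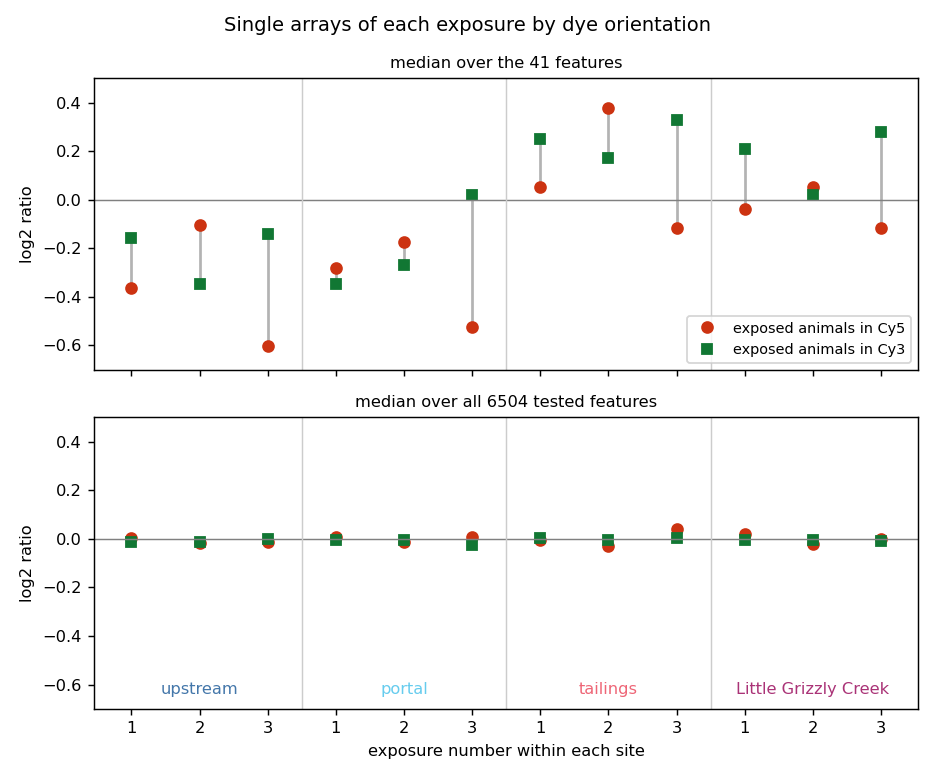
Median log2 ratio on each single array, by site and exposure number, for the 41 features (upper panel) and for all 6504 tested features (lower panel). Circles are arrays with the exposed animals in Cy5, squares with the exposed animals in Cy3, and a grey line joins the 2 arrays of an exposure; in the exposures numbered 3 the circles lie below the squares at all 4 sites for the 41 features.

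At tailings and Little Grizzly Creek many members had opposite signs on the 2 arrays. In tailings exposure 3, 11 of 41 members (26.8%) had the same sign on both arrays, against 64.7% of all tested features. In Little Grizzly Creek exposures 1 and 3 the counts were 14 of 41 (34.1%) and 10 of 39 (25.6%), against 61.1% and 60.4%. In tailings exposure 2 the members exceeded the background, with 38 of 41 (92.7%) against 74% of all features, while in tailings exposure 1 (63.4% against 74.6%) and Little Grizzly Creek exposure 2 (69.2% against 73.5%) they did not. In the portal exposures the shares were 87.8%, 80.5% and 43.9%, against 69.3%, 68.4% and 63.1% of all features. Upstream they were 78.0%, 78.0% and 58.5%, against 68.9%, 73.1% and 78.2%. At every site the exposure numbered 3 had the lowest share.

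The dye offset comes from the difference of the 2 arrays, while the selection used their average. The 2 measures are unrelated only where both arrays have like spread, and the array SD ran from 0.297 to 1.05. The offset is therefore not free of the selection, and its counts are given as a description. Tested over the 12 exposures as independent values with limma and Benjamini-Hochberg adjustment, 13% of all features passed, and so did 6 of the 41 members, 2 with the higher ratio in Cy5 (5.46% of all features) and 4 with the lower (7.58%). At an unadjusted p under 0.05 the counts were 31 of the 41 members and 34.1% of all features. These calls depended on how the exposure number was added, in fits chosen after seeing the data. With the number as a replicate block, 31 members and 34.6% of all features passed the adjusted threshold. With the number as a random effect the calls were lost. No member (0) and 9 of 6504 features then passed by limma, and 18 members and 14.7% of all features had an unadjusted p under 0.05. The smallest adjusted p among the members was 0.212 by limma, with an estimated correlation of 0.415 between exposures sharing a number. In the fit without that term, the count of members moved with single exposures, as did the share of all features. Without portal, tailings and Little Grizzly Creek exposure 2 it was 26, 20 and 13, with 31.4%, 20.2% and 21.9% of all features. It was between 1 and 3, with 5.85% to 9.55% of all features, without upstream exposures 1 or 3, portal exposure 3, tailings exposures 1 or 3, or Little Grizzly Creek exposures 1 or 3. Across all tested features, the offsets of same-numbered exposures correlated between 0.262 and 0.674 over 18 pairs. Those of differently numbered exposures correlated between -0.358 and 0.595 over 48 pairs. Turning an exposure also turns its offset. As deposited, the offset of upstream exposure 2 correlated at 0.426, 0.283 and 0.309 with those of portal, tailings and Little Grizzly Creek exposure 2. Whether the sign of that upstream exposure is turned was not tested. Features are not independent replicates, and no label names a labelling batch, so the part of labelling in the members' values was not tested.

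P6CD3, the member with the highest tailings mean, shows the extent of the offset. In portal exposure 3 it read -1.31 with exposed animals in Cy5 and 0.47 with exposed animals in Cy3, which averaged to -0.42. In Little Grizzly Creek exposure 3 the readings were -0.65 and 1.12. Its upstream and portal arrays were below 0 in 7 of 12 cases. P8AG5 was below 0 on all 12 upstream and portal arrays, from -0.80 to -0.063. Its mean dye offset of 0.13 was the most positive of the 41. Offsets below 0 were larger in size in other members, down to -0.28 in P13DE5.

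Applied to a single dye orientation, the selection found 12 features on the arrays with exposed animals in Cy5, 6 of them among the 41. It found 35 on those with exposed animals in Cy3, 4 of them among the 41. No feature (0) met it in both orientations. These checks were chosen after seeing the data. They use 1 array in place of 2 for each exposure, so their values carry more error than the averages.

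The levels of the 41 members were low in upstream and portal water by selection, and small. Over members, the median exposure value was -0.21, -0.21 and -0.35 in the 3 upstream exposures, taken by number. The 3 portal medians were -0.33, -0.20 and -0.27. The medians of all tested features in these 6 exposures ran from -0.037 to 0.017. At least 1 of the 6 values reached -0.5 in 14 members and -1 in 1 member, so most of the group differed from control by a fraction of a log2 unit.

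In tailings water the members' medians were 0.20, 0.25 and 0.15 in exposures 1, 2 and 3, and in Little Grizzly Creek water 0.12, 0.046 and 0.16. Single exposures did not all share the sign of the site mean. In tailings water 30 members had all 3 exposures at or above 0, 7 had 1 below 0 and 4 had 2 below 0. In Little Grizzly Creek water 19 had no measured exposure below 0, 18 had 1 and 4 had 2. The second Little Grizzly Creek exposure was the lowest of the 3 in 23 of the 37 members with all 3 values, and it was below 0 in 14 of 39.

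**Figure D2:**
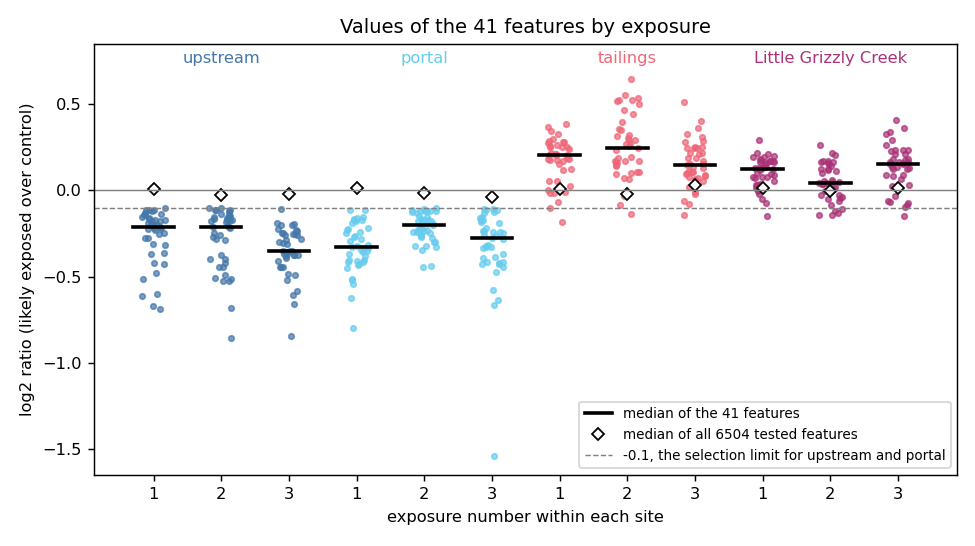
Log2 ratio of each of the 41 features (points) in the 12 exposures, with their median (black bar), the median of all 6504 tested features (diamond) and the selection limit of -0.1 (dashed). All upstream and portal points lie below the limit by selection, while tailings and Little Grizzly Creek points lie on both sides of 0, with medians from 0.046 to 0.25.

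**Figure D3:**
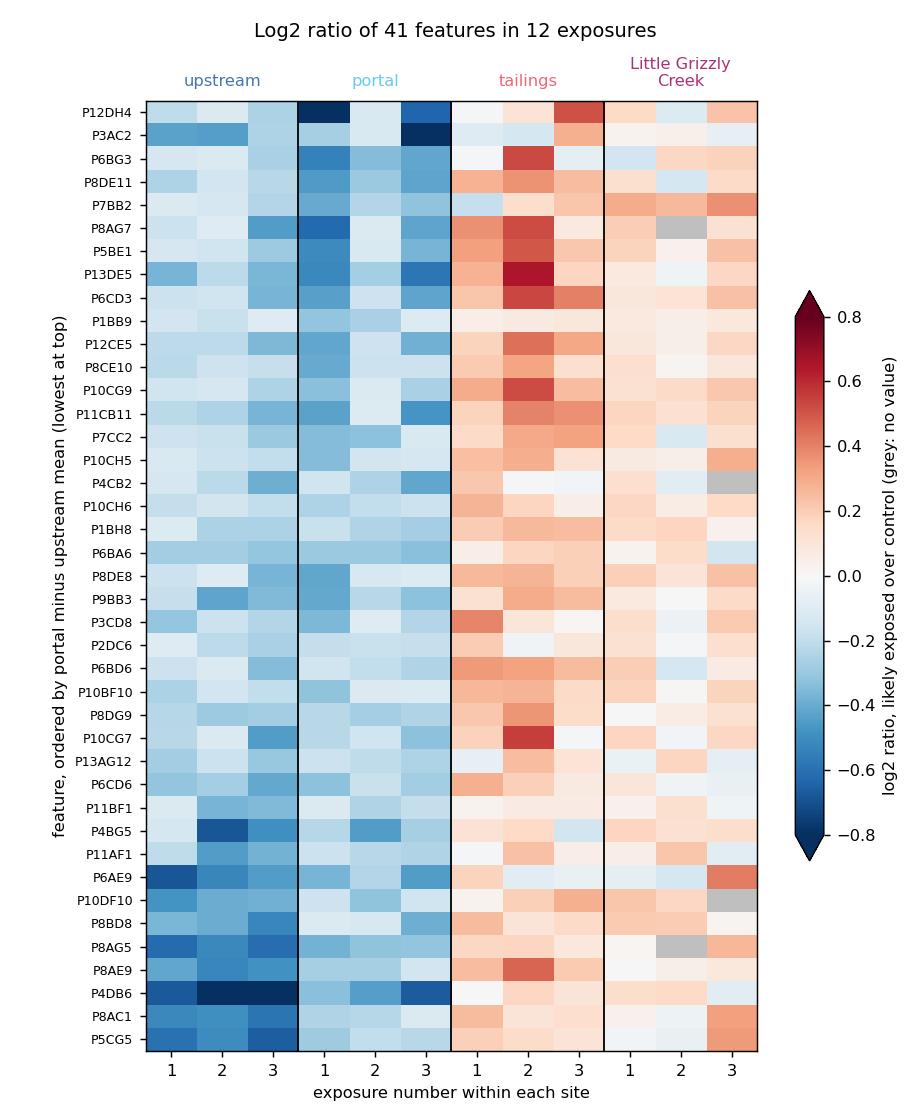
Log2 ratio of each of the 41 features (rows, ordered by portal minus upstream mean) in the 12 exposures (columns, 3 per site). Blue is below and red above control, grey marks no value, and values past 0.8 in either direction share the darkest colour; the rows at the bottom are lowest in upstream water and those at the top in portal water.

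The separation between the site pairs was complete in most members. In 36 of 41, every upstream and portal exposure lay below every tailings and Little Grizzly Creek exposure, where 7.27% of all features with 6 values did so. The selection fixed most of that separation, so nothing is read from it. The same holds for the contrast between the site pairs, which used the values that chose the members. In limma's fit of all features 39 members passed, where 12.7% of features passed, 8.58% in that direction, and this count supports nothing. It was 19 with a dye term (13.2% of all features) and 9 with the second upstream exposure turned (423 of 6504 features). The members' median difference was 0.43 log2 units, against 0.00049 over all features.

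Against control, 5 of the 41 members passed limma's adjusted threshold in upstream water. They were the only features of all 6504 to do so (0.0769%), and all 5 were lower. At an unadjusted p under 0.05 by limma, 36 members and 16.7% of all features differed from control. In portal water no member and no other feature passed (0%), while 41 of 41 members and 22% of all features had an unadjusted p under 0.05 by limma. Both contrasts were used in the selection, so these counts are descriptions. The upstream count was 0 without upstream exposure 1, 2 or 3. It was 1 without tailings exposure 1 or 3 or Little Grizzly Creek exposure 1, 2 without portal exposure 1, 3 without tailings exposure 2 and 9 without portal exposure 3, where 1.92% of all features passed. The portal count was 17 without portal exposure 2, where 11.1% of all features passed. Under a block by exposure number, 17 members (7.04% of all features) passed in upstream and 26 (16.7%) in portal water, while with the number as a random effect 2 and 0 members passed, and 2 and 0 of all features.

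P4DB6 had the lowest upstream mean of the group. Upstream it read -0.67, -0.86 and -0.85, and at the portal -0.33, -0.44 and -0.66. In tailings water it stood at 0.0026, 0.16 and 0.10, and in Little Grizzly Creek water at 0.14, 0.16 and -0.093. Upstream and portal values did not overlap with those of the other sites, and the upstream mean of -0.79 ± 0.11 (SD, n = 3) was the farthest from control. All 12 of its upstream and portal arrays were below 0.

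P5CG5 was next lowest in upstream water. Its values there were -0.60, -0.51 and -0.66, against -0.28, -0.19 and -0.22 in portal water. In tailings water it read 0.19, 0.15 and 0.11 and in Little Grizzly Creek water -0.023, -0.061 and 0.34. All 3 upstream exposures were below all 3 portal exposures, and the high Little Grizzly Creek exposure 3 rested on an array at 0.66 with its dye swap at 0.024.

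P8AG5 and P8AC1 had profiles close to that of P5CG5. P8AG5 read -0.61, -0.52 and -0.61 in upstream and -0.38, -0.32 and -0.32 in portal water, so that its highest value in these waters was among the lowest of the group. P8AC1 read -0.51, -0.49 and -0.58 in upstream and -0.24, -0.23 and -0.12 in portal water. For both, upstream exposures lay below portal exposures without overlap. Over their shared exposures, P5CG5 differed from P8AC1 by 0.049 log2 units on average and from P8AG5 by 0.052.

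P3AC2 and P12DH4 had the lowest portal means, and both rested on few exposures. P3AC2 read -0.27, -0.12 and -1.54 in the portal exposures against -0.43, -0.44 and -0.25 upstream. The value of -1.54 joined an array at -0.57 with one at -2.51. P12DH4 read -0.80, -0.12 and -0.63 in portal and -0.20, -0.11 and -0.25 in upstream water, so the second exposure was the highest at both sites. Upstream and portal values overlapped for both features.

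At the other sites, the highest tailings means belonged to P6CD3 and P13DE5. P6CD3 read 0.22, 0.54 and 0.40 in tailings water and 0.090, 0.11 and 0.24 in Little Grizzly Creek water. P13DE5 read 0.28, 0.65 and 0.17 in tailings water and 0.078, -0.037 and 0.16 in Little Grizzly Creek water. Both were highest in the second tailings exposure, as were 23 of the 41 members. P7BB2 had the highest Little Grizzly Creek mean, with 0.29, 0.26 and 0.36, and read -0.18, 0.14 and 0.22 in tailings water. P10DF10 followed with 0.22 and 0.16 in the 2 Little Grizzly Creek exposures that had a value.

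Whether portal or upstream water gave the lower reading was not fixed by the selection, which held both to a common limit. The selection still used the same exposure values, so it could limit both their difference and their spread within a site. The calls, intervals and counts for this difference are therefore descriptions. The portal mean was lower in 22 of 41 members, and the median of portal minus upstream was -0.0015 log2 units, against -0.00084 over all features. No member and no other feature passed limma's adjusted threshold (0%). At an unadjusted p under 0.05, 5 members passed, against 3.06% of all features, and all 5 were higher in portal water, where 2.35% of all features were higher and 0.707% lower at that level. The block by exposure number also gave 0. Upstream and portal exposures with a shared number deviated together, their correlations across features being 0.525, 0.648 and 0.822.

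The missing calls do not show that both waters acted alike, and the intervals rest on values that the selection used. The 95% interval of the difference by limma reached 0.23 log2 units to either side for the middle member, and from 0.17 to 0.70 over the group. P5CG5 was higher in portal water by 0.36 (95% interval 0.11 to 0.60) and P8AC1 by 0.33 (0.10 to 0.57), both with an adjusted p of 0.9998 by limma. P12DH4 was lower in portal water, at -0.33 (-0.75 to 0.096), and P3AC2 at -0.27 (-0.96 to 0.43), likewise with adjusted p = 0.9998 by limma. Turning the second upstream exposure brought the differences of P5CG5 and P8AC1 to 0.018 and 0.0076. The sign of P3AC2 turned to 0.18 without portal exposure 3 and to 0.13 after quantile normalisation.

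**Figure D4:**
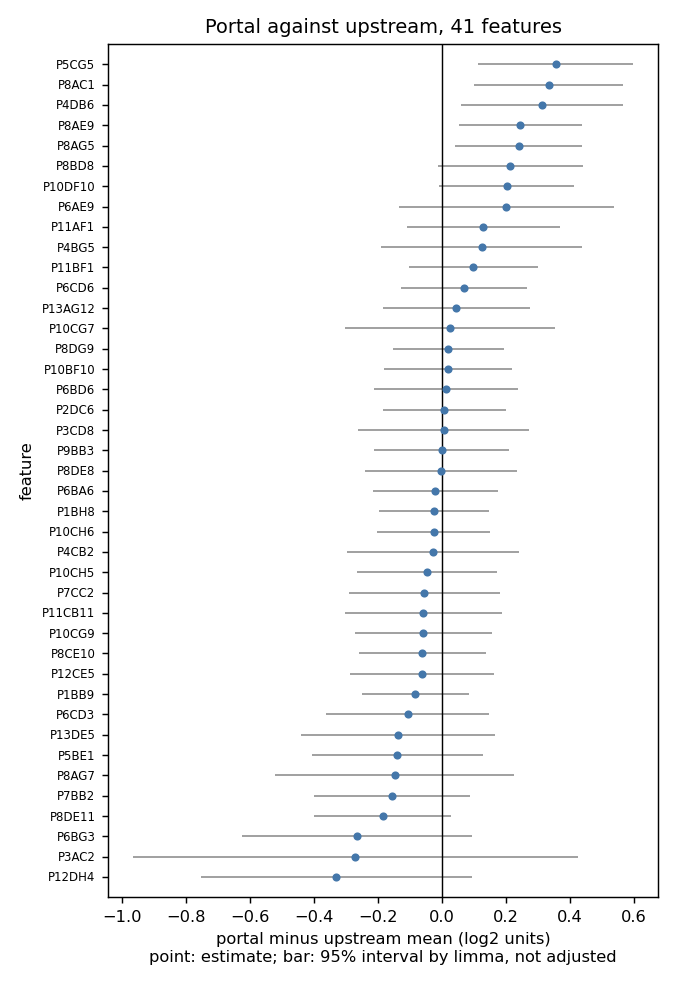
Portal minus upstream mean for each of the 41 features (points) with the unadjusted 95% interval by limma (bars), in log2 units. The selection used the same exposure values, so the intervals are a description. The estimates run from -0.33 to 0.36 and the intervals of 5 features, all higher in portal water, lie clear of 0, while no feature passed after adjustment over all 6504.

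Without overlap, all upstream exposures were below all portal exposures in 6 members, where 3.73% of all features with 6 values showed this. The opposite held in 2 members, where 4.03% of all features showed it. The selection used the same exposure values, so both counts are descriptions. The 6 members had upstream means between -0.79 and -0.42 and portal means between -0.48 and -0.19. They are P4DB6, P5CG5, P8AC1, P8AE9, P8AG5 and P10DF10, a set read off after their values were seen, and no test is attached to it. P8AE9 is named only for that reason and because it completes the 5 calls against control in upstream water. Of these 6 features, 5 had a mean dye offset above 0, and 10 of the other 35 members did. The median offset over all tested features was 0.018, also above 0. This split was made after the values were seen, so nothing is read from it. All 6 were below 0 on at least 11 of the 12 upstream and portal arrays.

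Little Grizzly Creek and tailings water were held to limits that differed, since only the tailings mean had an upper limit. The Little Grizzly Creek mean was the lower in 37 of 41 members, with a median difference of -0.080 log2 units. It was -0.010 over all features, which were not held to these limits. The selection used both means, so the direction of their difference is partly fixed and the count is a description. All Little Grizzly Creek exposures lay below all tailings exposures in 9 members, where 6.67% of all features did so, and the reverse held in 1 member, where 3.74% did. No member and no other feature passed limma's adjusted threshold (0%), nor did any under the block by exposure number (0). At an unadjusted p under 0.05 there were 5 members, 1 higher and 4 lower in Little Grizzly Creek water, against 3.31% of all features, 0.4% higher and 2.91% lower. P7BB2 was the member that was higher, by 0.25 (95% interval 0.0041 to 0.49, adjusted p = 0.99995 by limma).

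Several members had nearly the same profile. Over the 820 pairs of members, the mean absolute difference across exposures had a median of 0.149 log2 units, and in the 20 closest pairs it was between 0.040 and 0.066. The closest pair was P11CB11 and P12CE5, at 0.040, followed by P12CE5 and P6CD3 at 0.044. Since all members were chosen for one pattern over sites, likeness over sites is built in. The dye offset was therefore compared as well, although it comes from the same arrays. Its profile over exposures correlated at 0.974 between P11CB11 and P12CE5 and at 0.985 between P12CE5 and P6CD3. In the 20 closest pairs the median of this correlation was 0.945, with a range of 0.104 to 0.987 and 14 pairs above 0.9. In the other 800 pairs the median was 0.535, with a range of -0.92 to 0.987 and 133 pairs above 0.9. Some features recur in several of the 20 pairs, and pairs of features outside the group were not compared. Whether such features carry the same transcript is not known here, and members with like profiles were not counted as independent.

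The members came from a part of the array. Identifiers begin with A1 to A7 or with P1 to P13, each start covering 384 features. All 41 members began with P and 0 with A, although 844 of the 4044 features with all 6 values (20.9%) began with A. Features beginning with A were at or below -0.1 in all 6 upstream and portal exposures in 11 of 844 cases (1.30%), against 190 of 3200 (5.94%) for P. Each of those 11 had tailings and Little Grizzly Creek means below 0. In the opposite direction, at or above 0.1 in all 6, the shares were 7.11% for A and 5.56% for P, and 15 of the 34 features found with every sign turned began with A.

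Among the P starts, P8 held 9 members of 230 features with all 6 values, P6 held 6 of 269 and P10 held 6 of 243. The other 10 starts held 1 to 3 members each. P8 and P12 each held 27 features that were low in all 6 exposures, but only 2 of those of P12 were members. What the starts of the identifiers stand for is not stated, and since members with like profiles may not be independent, these counts are given as a description.

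**Figure D5:**
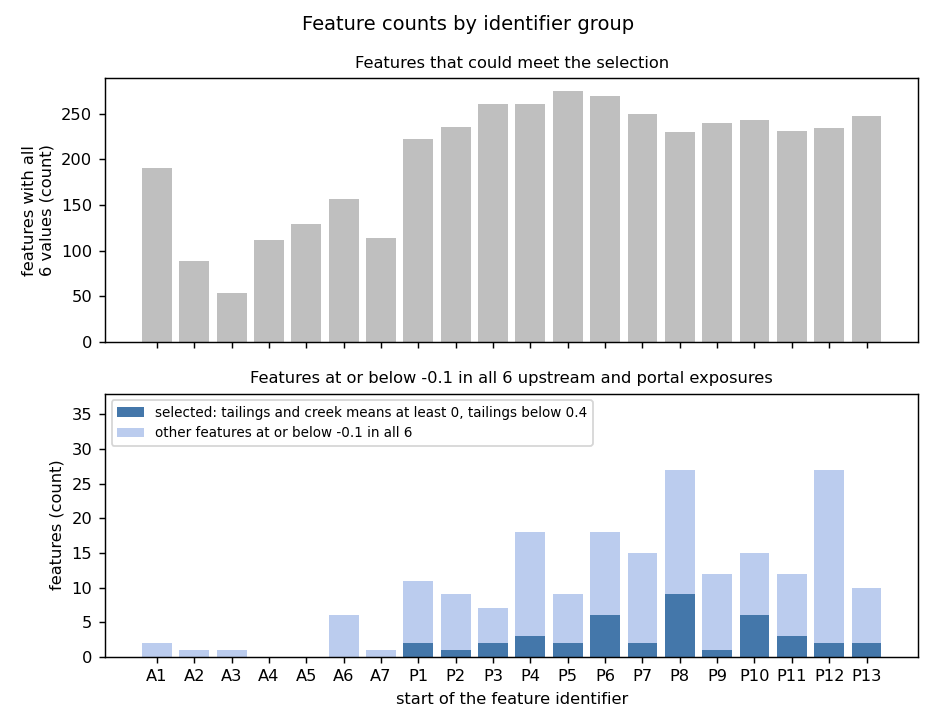
Number of features with all 6 upstream and portal values (upper panel) and of features at or below -0.1 in all 6 (lower panel, dark for the 41 selected and light for the rest), by the start of the identifier. The 41 selected features all begin with P, with 9 in P8, and none begins with A.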

How the data were processed

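The authors deposited 1 log ratio per feature and array, taken here as log2; scanning, background correction, normalisation and filtering are not given in the sources used here. Per the labels' protocols, amino-allyl cDNA was coupled to Cy3 or Cy5 and the dyes were exchanged for each technical replicate. Channel brightness was not used here, so precision is limited by how many arrays there were. The members and all comparisons were chosen with earlier results of these data known. Exposure values are means of both arrays. limma 3.58.1 in R 4.3.3 (lmFit, eBayes) fitted 12 exposures with a mean per site and p-values were adjusted by Benjamini-Hochberg over 6504 features, threshold 0.05; the fit was tested on simulated data. The dye offset was tested the same way, against 0. The reported fits carry no term for the exposure number, and fits with it were alternatives. Deviations of same-numbered exposures correlated above 0.1 in all 3 pairs for upstream and portal (0.525 to 0.822), tailings and Little Grizzly Creek (0.382 to 0.602) and portal and Little Grizzly Creek (0.163 to 0.586), but not for the other site pairs. This pairing comes from the data and not from the labels. The p-values against control leave out the spread of control animals where control RNA was shared. Features were named by rank: the 2 lowest means in upstream and in portal water, the 2 extremes each way of portal minus upstream, the 2 highest tailings and Little Grizzly Creek means, and the 2 members whose highest upstream or portal value was lowest. P8AE9, P11CB11 and P12CE5 fall outside these ranks and were chosen after their values were seen. Python 3.11.15 was used for counts and figures.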

Additional observations from a re-analysis of the deposited data

Results flagged for a closer look

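In 17 of the 41 features every upstream and portal exposure was below 0 and every measured tailings and Little Grizzly Creek exposure was at or above 0. The count of 17 was not tested, because the selection fixed the sign of the first 6 values and of the other means. In limma's comparison of tailings and Little Grizzly Creek with upstream and portal water, 39 of the 41 passed the adjusted threshold. Of all features 12.7% passed it, 8.58% in that direction. That comparison used the values that chose the members, so it is no independent test of the difference. No group had the 4 samples needed to look for a sample far from the rest.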

How the results depend on the processing

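The number of features that met the selection was 158 with a limit of 0 for upstream and portal values, 6 with a limit of -0.2, 80 without an upper limit at tailings and 17 with the second upstream exposure turned, none of the last among the 41. Leaving out single exposures gave 34 to 82, with 82 without upstream exposure 2, 78 and 69 without portal exposures 2 and 3, and 71 without tailings exposure 2. Quantile normalisation kept 34 of the 41 among 52, and scaling arrays to a common spread kept 26 among 37. Chosen after seeing the data, arrays with exposed animals in Cy5 alone gave 12, and 10 members had both arrays of all 6 exposures below 0. In upstream water against control, 5 members were called as reported (0.0769% of all features). They numbered 14 after quantile normalisation (4.98%), 14 after scaling (5.09%) and 8 with 24 arrays and a dye term (1.94%). With the exposure number as a random effect they numbered 2 (2 features in all), and as a replicate block 17 (7.04%). The count was 0 with the second upstream exposure turned, and 0 to 9 without single exposures (up to 1.92%). With either normalisation, the dye term or the block, members were not the only features called. In portal water, with 0 as reported, they numbered 13 among features with all 12 values (4.64%), 26 with the replicate block (16.7%), 1 with the dye term (3.87%), and 0 to 17 without single exposures (up to 11.1%). For the difference between the site pairs, 39 members passed as reported (12.7% of all features). The count was 9 with the second upstream exposure turned (6.5%) and 19 with the dye term (13.2%). Without single exposures it was 30 to 39 (6.39% to 21.0%). The 6 members with a dye offset (13% of all features) became 13 among features with all 12 values (23.5%). They became 0 with the second upstream exposure turned, where the calls over all features fell from 848 to 2. Without single exposures they numbered 1 to 26 (5.85% to 31.4%). Added after seeing the data, the replicate block gave 31 (34.6%) and the number as a random effect 0 (9 features in all). For portal minus upstream and Little Grizzly Creek minus tailings, limma's count stayed at 0 in all 20 alternatives each, the replicate block among them (0), with 5 members each at an unadjusted p under 0.05 as reported. P3AC2 changed sign in portal minus upstream after quantile normalisation (0.13) and without portal exposure 3 (0.18), with a range of -0.53 to 0.18 without single exposures. The causes of these changes were not tested. Array number and unknown channel brightness limit what small ratios can show.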
